A study of Mus musculus with 4 samples.

Results

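The interferon-stimulated antiviral effector genes are the genes through which a cell that has seen interferon detects and blocks viruses. A list of 40 such genes, made up of effectors and sensors and leaving out the IRF and STAT factors, antigen presentation and the Ifi200 family, was matched by symbol to probe sets that read 1 gene, and 36 were found among the 19938 genes named on the array. Of the other 4, Gbp2, Igtp and Isg15 lie on probe sets that also read another gene and Ifi44 was not matched, so they carry no value here. The cells were non-synchronised mouse embryonic fibroblasts (connective tissue cells in culture) of wild-type genotype or labelled knockout for NFAT5/TonEBP, the transcription factor that drives osmolyte genes in salty medium. Culture lasted 20 hours, in isotonic medium or with NaCl added to reach 450 mosmol/kg. RNA was read on Affymetrix Mouse Gene 1.0 ST arrays, with 1 array for each pairing of genotype and medium, hybridised with a pool of 4 samples. There is no spread between replicates, so no difference was tested and every value describes these 4 pools. The gene list was chosen with earlier results of these data known, so its contrasts with all genes are descriptions and not independent support. The deleted part of Nfat5, the litters of origin and the osmolality of the isotonic medium were not given in the sources used here.

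Type I interferons bind a cell surface receptor, and its signal leads to the binding of transcription factors at the interferon-stimulated response element, a short DNA motif in the promoters of many antiviral genes. The products include RNA sensors, proteins that stop translation or degrade RNA, and GTPases that act against viruses and vacuolar pathogens. They also include the ubiquitin-like protein ISG15 with its enzymes. Fibroblasts keep a low level of these genes without infection and respond readily to interferon.

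The arrays had similar ranges, with median signals over all 35557 probe sets between 4.87 and 4.91 on the log2 scale, which all values and differences below use. A signal is called dim when it lies below its array's median over probe sets that read 1 gene, 5.38 to 5.44, where background and expression mix. Of the 36 genes 30 were above that limit on all arrays, 32 had a mean above it, and none was below it on every array. Each of the 36 was read by 1 probe set. Among 449 other genes with 2 probe sets of a mean above the limit, the differences used here varied with an SD of 0.15 to 0.21 per probe set. This SD covers error within an array and not between cultures, and it does not describe dim probe sets. Nfat5 itself read 7.74 and 8.19 in wild-type and 8.03 and 8.24 in knockout-labelled cells (isotonic, then hypertonic). It was not lower on the arrays labelled knockout, so those cells are called knockout-labelled throughout and each direction below rests on the labels. Of 11 fibroblast markers 9 were above the dim limit on each array, while Dcn and Lum were below it on all 4. None of 8 leukocyte markers and none of 6 endothelial markers was above the limit on any array, and of 9 macrophage markers only Cd68 was, at 5.62 or lower. Of 6 epithelial markers 2 or 3 were above the limit on each array, among them Krt18 on all 4, and Epcam, Krt5 and Krt14 were below it on all 4.

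In wild-type cells the antiviral genes read higher in hypertonic medium without exception. All 36 differences were above 0, from 0.15 for Herc6 to 2.54 for Ifi27l2a, with a median of 0.77. The same over all named genes was -0.03, with 45.5% above 0. At least 2-fold higher were 14 of the 36 (38.9%), against 0.577% of all genes, and none was 2-fold lower, against 0.236%. Besides Ifi27l2a, the largest differences were those of Ifit3, Lgals3bp, Gbp3 and Ifit3b, between 1.47 and 1.52.

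In knockout-labelled cells the order of the media was the opposite. The hypertonic array read lower for 34 of the 36. The median was -0.75 beside 0.03 over all genes. At least 2-fold lower were 11 (30.6%), against 1.67% of all genes, and none was 2-fold higher, against 0.266%. Trim30a (-1.88), Ddx60 (-1.75), Ifit3 (-1.58) and Iigp1 (-1.43) had the lowest differences. Oasl1 (0.12) and Trim25 (0.11) were the 2 genes above 0, by less than the SD between probe sets of 0.18. The summed linear signal of the fibroblast markers was also lowest on the knockout-labelled hypertonic array, at 12727. It was 20631 and 22689 in wild-type isotonic and hypertonic cells and 17421 in knockout-labelled isotonic cells. Bright genes weigh most in this sum. Among them, Col1a1 read 11.76 and 10.93 and Col1a2 11.88 and 10.68 in knockout-labelled isotonic and hypertonic cells. Over the 11 markers the median difference between these 2 arrays was -0.29, with 7 below 0 and 4 above. The part of the fibroblast markers in this result was not tested. All 6 epithelial markers, 3 of them dim on all arrays, read higher in knockout-labelled hypertonic than isotonic cells, with a median of 0.53. Their summed linear signal was 275 against 184, with 232 and 228 in wild-type isotonic and hypertonic cells. Krt18 alone read 6.94 against 6.03. The dim markers of other cell types rose too: 5 of 6 endothelial (median 0.39) and 6 of 8 leukocyte markers (0.14). Of all genes 54.1% were above 0. The part of these markers was not tested either. In pooled cultures fewer expressing cells and less RNA per cell cannot be told apart.

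The genes differed between genotypes already in isotonic medium. Knockout-labelled cells read higher for 33 of the 36. The median was 0.97 beside -0.04 over all genes. At least 2-fold higher were 17 (47.2%), against 0.888% of all genes, and none was 2-fold lower, against 0.727%. Oas2 had the largest difference, 2.03, followed by Mx1 and Iigp1 (each 1.56), Trim30a (1.49) and Xaf1 (1.48). The exceptions were Ifi27l2a (-0.55), Ifit2 (-0.31) and Samhd1 (-0.02). The fibroblast markers were lower in sum on this array than on the wild-type isotonic one, the reverse of the antiviral genes. This comparison shares the wild-type isotonic array with the wild-type hypertonic difference and the knockout-labelled isotonic array with the knockout-labelled one, so a high or low array enters both.

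In hypertonic medium the sign turned. Knockout-labelled cells read lower for 30 of the 36. The median was -0.50 beside 0.04 over all genes, and 10 (27.8%) were at least 2-fold lower, against 3.54% of all genes. None was 2-fold higher, against 1.46%. Ifi27l2a (-3.68), Ifit3 (-2.34), Dhx58 (-2.10), Ifit3b (-1.63) and Gbp3 (-1.55) were lowest. Oas2 (0.75), Trim25 (0.72) and Oasl1 (0.64) stood on the other side of 0. The fibroblast markers were lower here as well, with a median of -1.41 over 11 and 6 at least 2-fold lower, and their part in this result was not tested.

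The difference of responses is the hypertonic difference of knockout-labelled cells less that of wild-type cells. It was below 0 for all 36 genes, with a median of -1.34 beside 0.06 over all genes. It was at least 2-fold negative for 24 (66.7%), against 3.21% of all genes, and at least 2-fold positive for none, against 1.23%. The fibroblast markers also had a negative median here, -0.98 over 11 with 4 at least 2-fold negative. The epithelial markers had a positive one, 0.65 over 6, as had the dim endothelial (0.31 over 6) and leukocyte markers (0.22 over 8). The part of all these markers in this result was not tested. Compared with isotonic medium, 8 of the 36 read at least 2-fold higher in hypertonic wild-type cells and at least 2-fold lower in hypertonic knockout-labelled cells. Over all genes 22 did so, 0.11% of 19938. The order that 31 of the 36 shared (86.1%) was hypertonic above isotonic in wild-type cells, hypertonic below isotonic in knockout-labelled cells, and knockout-labelled above wild-type in isotonic medium. That order held for 13.4% of all genes. The wild-type isotonic array was the lowest of the 4 for 23 genes and the knockout-labelled hypertonic array for the other 13. The knockout-labelled isotonic array was the highest for 23, the wild-type hypertonic array for 11 and the knockout-labelled hypertonic array for 2.

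**Figure D1:**
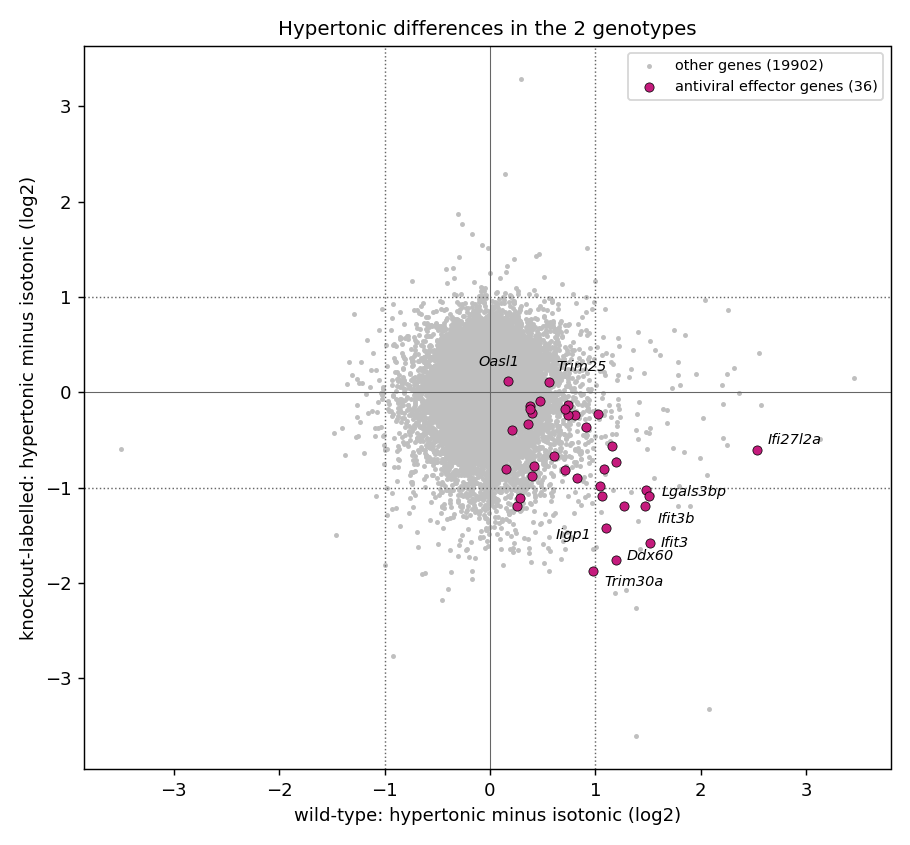
Hypertonic minus isotonic difference (log2) in wild-type cells (horizontal) and in knockout-labelled cells (vertical), 1 point per gene, with dotted lines at 2-fold. The 36 antiviral effector genes (large points) all lie to the right of 0 and 34 of them lie below 0, while the other 19902 genes (grey) centre near 0 on both axes.

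The arrays that both read high were then set against each other, as were the arrays that both read low. Knockout-labelled isotonic minus wild-type hypertonic cells had a median of 0.19 over the 36, beside -0.02 over all genes. At least 2-fold higher were 2 genes (5.56%), Oas2 (1.63) and Mx1 (1.30), against 1.05% of all genes, and 1 (2.78%) was 2-fold lower, Ifi27l2a (-3.08), against 1.46%. Knockout-labelled hypertonic minus wild-type isotonic cells had a median of 0.14 beside 0.00. Here Trim25 (1.28) and Oas2 (1.16) were at least 2-fold higher (5.56%, against 1.23% of all genes) and Ifi27l2a (-1.15) was 2-fold lower (2.78%, against 2.56%). Within 1.5-fold of each other were 27 of the 36 in the former pair and 23 in the latter, 75.0% and 63.9%. Over all genes the shares were higher, 91.0% and 86.6%, so the antiviral genes were not closer on these arrays than other genes.

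**Figure D2:**
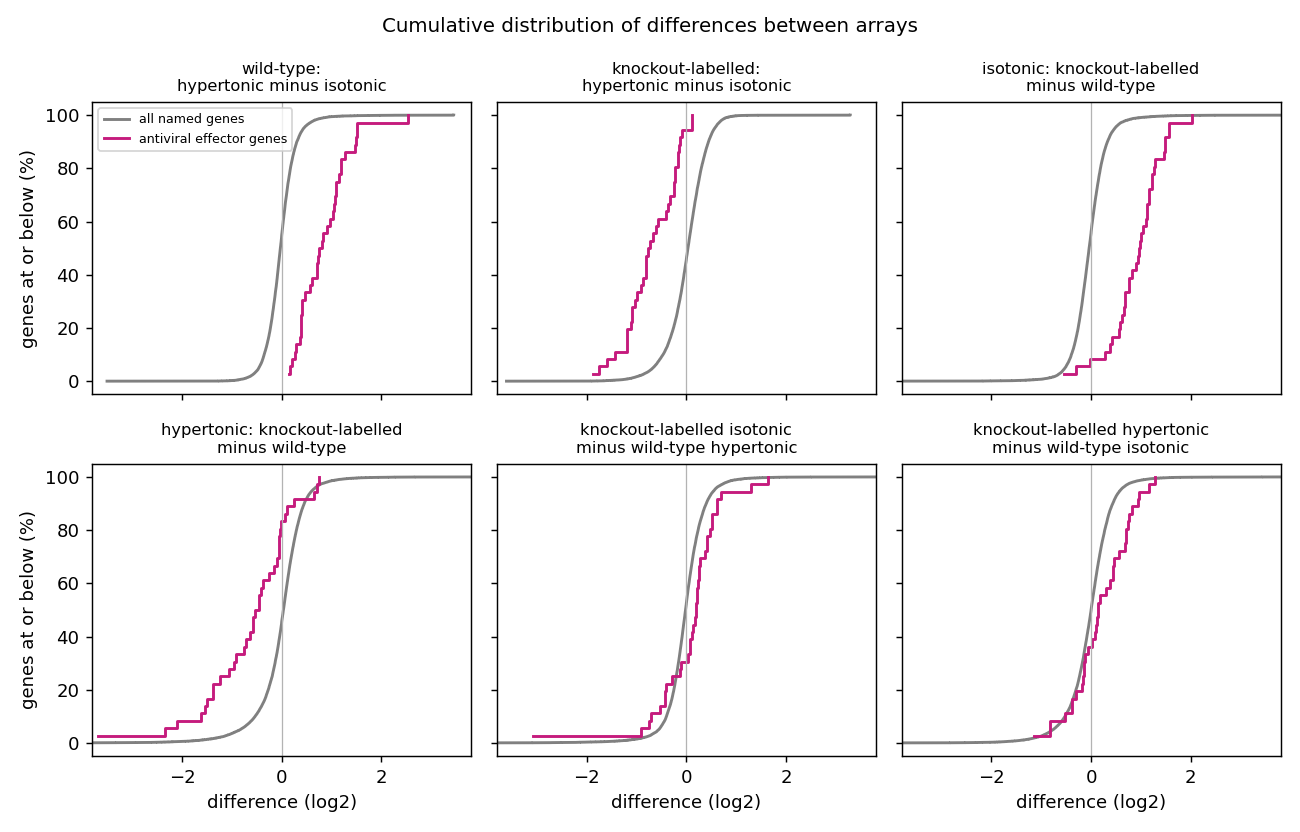
Cumulative percentage of genes at or below each log2 difference, for the 36 antiviral effector genes (coloured) and all 19938 named genes (grey), in 6 pairs of arrays; the horizontal axis is limited to the range that holds the 36 genes. The coloured line lies far right of the grey for the wild-type response and the isotonic genotype difference, far left for the knockout-labelled response, and near it in the last 2 panels (medians 0.19 and 0.14).

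By role, signals are given below in the order wild-type isotonic, wild-type hypertonic, knockout-labelled isotonic and knockout-labelled hypertonic. They are probe set readings, comparable between arrays for a gene but not between genes. Promoter sequences are RefSeq's for build GRCm38.p6, read 5′ to 3′ on the gene's strand. Capitals mark matches to the core of the interferon-stimulated response element, sought as a GAAA repeated after 2 bases of any kind, on either strand. Sequences are shown for some genes that hold a match and were above 0 in the wild-type and below 0 in the knockout-labelled response. Oasl1, above 0 in both, is shown as a promoter without a match. Other genes without a match, among them Oasl2, Xaf1 and Lgals3bp, had responses of the same signs as the former and are not shown. The printed sequences therefore do not show that a match goes with the response.

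Among the sensors, all 5 were found and all 5 read higher in hypertonic wild-type and lower in hypertonic knockout-labelled cells. Ddx60, a helicase linked to RIG-I signalling, read 5.29, 6.49, 6.75 and 5.00. Dhx58, which encodes LGP2, a helicase that tunes the other RNA sensors, read 5.65, 6.93, 6.03 and 4.83. The wild-type hypertonic array was the highest for Dhx58 and the knockout-labelled isotonic array for Ddx60, and the knockout-labelled hypertonic array was dim and the lowest for both. Zbp1, a sensor of Z-form nucleic acid, read 5.13, 5.41, 6.11 and 5.00, so it was clear of the dim limit only in knockout-labelled isotonic cells, 1.10 above the hypertonic ones. Ddx58, which encodes RIG-I, the sensor of viral RNA ends, read 8.76, 9.66, 9.88 and 9.51. Its wild-type isotonic signal stood apart below the other 3, with a hypertonic difference of 0.91 in wild-type and -0.37 in knockout-labelled cells. Ifih1, which encodes MDA5, the sensor of long double-stranded RNA, stayed within 2-fold in each pair of arrays, between 7.08 and 7.85. The promoter of Ddx60 (chr8:61927994-61928086, plus strand) holds 2 matches, starting 53 and 19 bases before the start site.
Ddx60: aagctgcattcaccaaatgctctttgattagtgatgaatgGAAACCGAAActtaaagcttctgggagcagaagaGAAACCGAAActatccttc

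The IFIT proteins bind foreign RNA ends and block its translation. Ifit3 read 7.68, 9.20, 8.44 and 6.86. Ifit3b, its near copy, read 6.02, 7.49, 7.06 and 5.86. Ifit1, which binds incompletely capped RNA, read 9.44, 10.52, 10.10 and 9.29. For these 3 the wild-type hypertonic array was the highest and the knockout-labelled hypertonic array the lowest, and the difference of responses was -3.10 for Ifit3, -2.66 for Ifit3b and -1.89 for Ifit1. Ifit2, which binds RNA rich in A and U, stayed between 8.06 and 8.98, and its knockout-labelled isotonic signal lay below the wild-type isotonic one. All 4 read lower in knockout-labelled isotonic than in wild-type hypertonic cells, with differences from -0.75 to -0.43, whereas 25 of the 36 genes read higher there. Ifit3 and Ifit3b are near-identical genes and probes of this array may read both, so their signals are not independent. The promoter stretches of Ifit3 (chr19:34583333-34583456), Ifit3b (chr19:34607729-34607852) and Ifit1 (chr19:34640745-34640853), all on the plus strand, each hold 2 matches.
Ifit3: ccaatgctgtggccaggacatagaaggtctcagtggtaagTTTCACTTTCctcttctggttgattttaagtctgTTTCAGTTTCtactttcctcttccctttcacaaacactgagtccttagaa
Ifit3b: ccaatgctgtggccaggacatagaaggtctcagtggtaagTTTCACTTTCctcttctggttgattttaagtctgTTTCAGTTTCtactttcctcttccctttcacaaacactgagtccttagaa
Ifit1: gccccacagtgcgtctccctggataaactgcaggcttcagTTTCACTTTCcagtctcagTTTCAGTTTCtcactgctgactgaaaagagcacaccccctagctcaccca
The stretches of Ifit3 and Ifit3b are identical in all 124 bases. Their matches start 34 bases apart, as do those of Ddx60, and those of Ifit1 start 19 bases apart. No match was found in the windows of Ifit2, which is the next protein-coding gene to Ifit3 in the reference order.

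Of the oligoadenylate synthetases, which make the messenger that activates RNase L, Oas1a read 7.09, 7.92, 8.10 and 7.20. Oas2 read 5.97, 6.38, 8.01 and 7.13, with both knockout-labelled arrays above both wild-type arrays. Oasl2, an active synthetase with ubiquitin-like domains, read 7.80, 8.87, 8.90 and 7.81, a symmetric pattern in which the high pair differed by 0.03 and the low pair by 0.01. Its neighbour Oasl1, known to restrain translation of Irf7 and without synthetase activity, read 7.69, 7.86, 8.38 and 8.50. Oasl1 differed by genotype, 0.69 and 0.64, and hardly by medium, 0.17 and 0.12; its difference of responses of -0.05 was the nearest to 0 of all 36. Eif2ak2, which encodes PKR, the kinase that stops translation on double-stranded RNA, lay between 8.03 and 8.58, with only the wild-type isotonic array apart. The Oas1a window (chr5:120907526-120907585, minus strand) holds 2 overlapping matches that start 20 and 14 bases before the start site. The 250 bases before the start of Oasl1 (chr5:114922990-114923239, plus strand) hold no match, nor does the window of Oasl2.
Oas1a: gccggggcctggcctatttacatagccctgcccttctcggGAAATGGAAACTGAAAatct
Oasl1: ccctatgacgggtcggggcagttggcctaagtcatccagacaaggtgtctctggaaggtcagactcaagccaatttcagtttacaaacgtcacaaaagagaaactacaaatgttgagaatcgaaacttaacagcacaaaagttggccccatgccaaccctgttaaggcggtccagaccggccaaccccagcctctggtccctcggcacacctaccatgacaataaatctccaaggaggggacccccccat

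Of the 7 listed GTPases 5 were found. Gbp3, a guanylate-binding protein gene, read 7.73, 9.21, 8.69 and 7.67. Mx2, which encodes a dynamin-like antiviral GTPase, read 5.49, 6.53, 6.76 and 5.78. In both genes the wild-type hypertonic and knockout-labelled isotonic arrays stood above the other 2. Mx1, whose nuclear protein restricts influenza virus, read 4.20, 4.46, 5.77 and 4.57, above the dim limit only in knockout-labelled isotonic cells. Iigp1, an immunity-related GTPase gene, read 3.82, 4.92, 5.39 and 3.96. Its highest signal lay close to the dim limit, so the sizes of its differences, 1.10 and -1.43, are poorly determined. Irgm1, a regulator of that GTPase family, read between 8.37 and 9.20; as for Eif2ak2, the wild-type isotonic array was low and the other 3 lay close together. The Gbp3 (chr3:142559959-142560043, plus strand) and Irgm1 (chr11:48871421-48871490, minus strand) promoters each hold 2 overlapping matches, which start 6 bases apart.
Gbp3: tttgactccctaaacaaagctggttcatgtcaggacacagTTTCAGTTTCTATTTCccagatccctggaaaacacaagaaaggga
Irgm1: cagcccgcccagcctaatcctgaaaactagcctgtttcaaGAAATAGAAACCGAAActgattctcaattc

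Of the ISG15 system and the TRIM ligases 4 genes were found. Usp18, which removes ISG15 from proteins and dampens the interferon receptor, read 7.94, 9.09, 9.20 and 8.63. Trim30a, an interferon-induced TRIM protein gene, read 6.98, 7.96, 8.47 and 6.59, the lowest knockout-labelled response of the 36. Trim25, the ubiquitin ligase that acts on RIG-I, read 7.24, 7.80, 8.41 and 8.52. Trim25, like Oasl1, was set apart by genotype: both knockout-labelled signals were above both wild-type ones. Herc6, the main ISG15 ligase of the mouse, lay between 5.81 and 6.61, lowest in knockout-labelled hypertonic cells.

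Parp9, Dtx3l and Parp14 encode ADP-ribosyltransferases and a ubiquitin ligase of the antiviral response, with PARP9 and DTX3L acting as a pair. They lie next to each other on chromosome 16. Parp14 read 6.64, 7.25, 7.87 and 7.20. Dtx3l read 6.54, 7.26, 7.67 and 7.50, and Parp9 stayed within 2-fold, between 7.59 and 8.53. Parp9 and Dtx3l had a low wild-type isotonic array. In Parp14 the knockout-labelled isotonic array also stood apart, 0.62 above the wild-type hypertonic one. The wild-type hypertonic differences of the 3 genes lay between 0.61 and 0.74. Their knockout-labelled hypertonic differences lay between -0.66 and -0.17, and none of the 3 was 2-fold apart by medium in either genotype.

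The nucleotide and RNA enzymes had a median difference of responses of -0.58. Rsad2, which encodes viperin, the maker of a chain-terminating nucleotide, lay between 6.58 and 7.16. Cmpk2, its neighbour on chromosome 12 and a nucleotide kinase gene, lay between 5.58 and 6.35. Samhd1, which encodes a phosphohydrolase that depletes deoxynucleotides, lay between 8.85 and 9.42. None of these was 2-fold apart between any arrays. Adar, which encodes the enzyme that edits adenosine to inosine in double-stranded RNA, read 8.01, 8.39, 8.29 and 8.15, with a difference of responses of -0.52. The 4 wild-type hypertonic differences lay between 0.21 and 0.42, so each was above 0 though none neared 2-fold.

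Of the other effectors 6 were found. Lgals3bp, a secreted glycoprotein gene, read 7.80, 9.31, 9.02 and 7.93. Xaf1, a pro-apoptotic interferon target, read 6.40, 7.59, 7.87 and 7.14. Rtp4, which encodes a receptor-transporting protein, read 8.90, 9.92, 10.06 and 9.84. In knockout-labelled hypertonic cells Lgals3bp read within 0.13 of its wild-type isotonic signal, whereas Xaf1 read 0.75 and Rtp4 0.94 above theirs. Bst2, which encodes tetherin, the protein that holds budding virions on the cell, read between 10.14 and 11.04, and Ifi35 between 7.36 and 8.17. Both followed the shared order of the media and genotypes within 2-fold.

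Ifi27l2a, an interferon alpha-inducible gene, departed from the rest. It read 4.98, 7.52, 4.44 and 3.84, dim on every array but the wild-type hypertonic one. Its wild-type difference of 2.54 therefore starts from a signal near background and its size is poorly determined. In knockout-labelled isotonic cells, where most of the 36 genes were highest, it differed from wild-type hypertonic cells by -3.08.

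**Figure D3:**
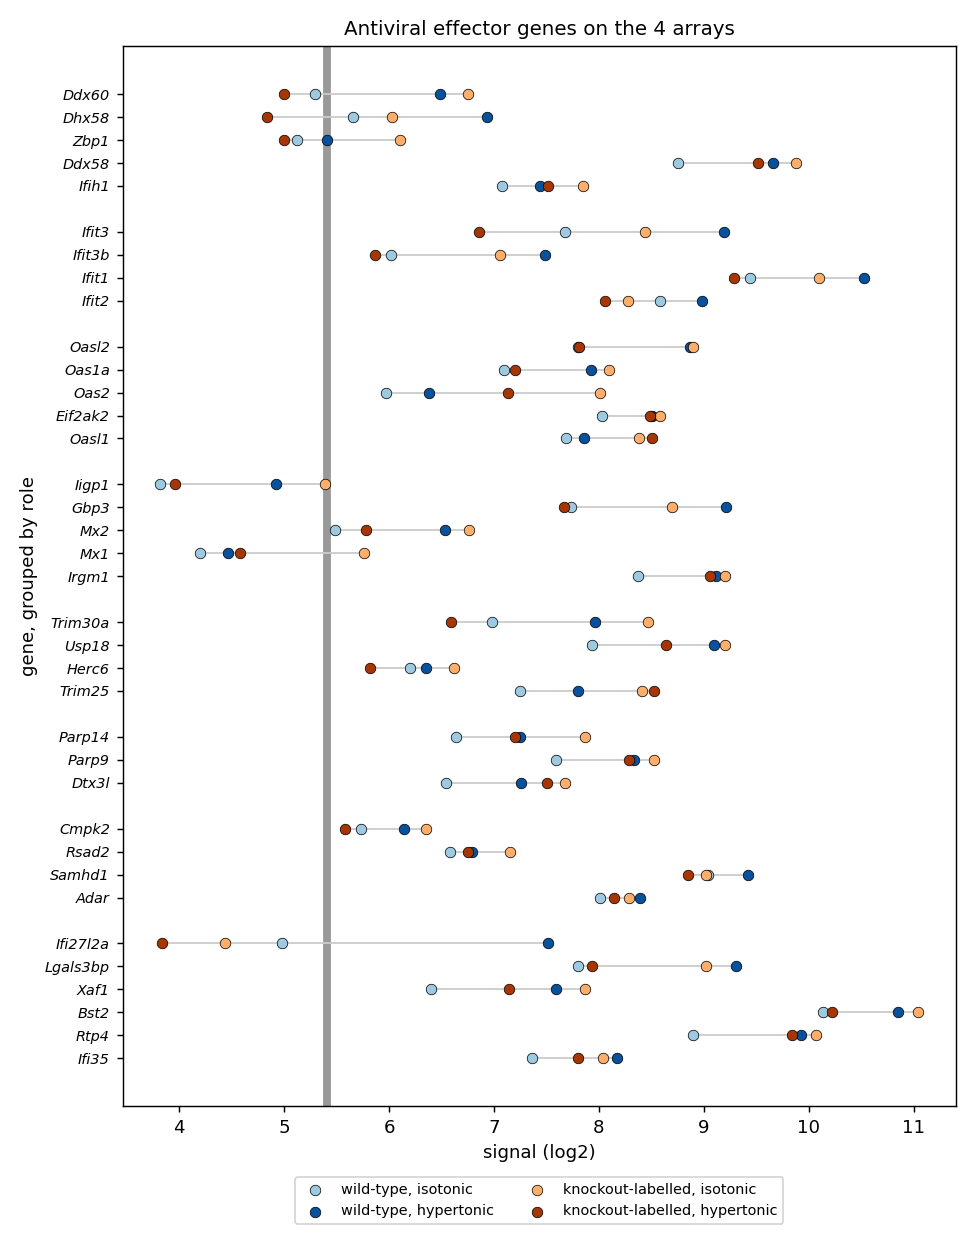
Signal (log2) of the 36 genes on each array, 1 row per gene grouped by role, with a line from its lowest to its highest signal and a grey band at the dim limits (5.38 to 5.44). The wild-type isotonic point is the lowest for 23 genes and the knockout-labelled hypertonic point for 13; Trim25 and Oasl1 are the 2 genes highest in knockout-labelled hypertonic cells.

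The promoter table held 25 of the 36 genes, 4 of them with more than 1 start site. In the window from 250 bases before to 50 bases after the start, 13 of the 25 (52.0%) held those letters on either strand, against 3.99% of 27025 genes in the table. A stricter form, the same letters followed directly by CT, is a subset of those matches and was held by 10 of the 25, against 0.303%. The genes were listed as interferon-induced, and many such genes carry this element, so both shares describe the list and not these arrays. In 10 genes a match lay before the start site, and in Ddx58, Ifih1 and Eif2ak2 it lay after it. TTCNNNGAA, the letters of the gamma-interferon-activated site, were found in 7 (28.0%) against 9.55%. TGGAAA on either strand, a core of the site NFAT5 and other NFAT factors bind, was found in 9 (36.0%) against 23.9%, and in 3 of the 9 it overlapped an interferon-element match. A match is a description of the sequence and not of binding. The 13 genes with an interferon-element match had a median wild-type hypertonic difference of 0.91, and the 12 without had 0.49; in knockout-labelled cells the medians were -0.82 and -0.23. The groups overlapped, from 0.21 to 1.52 and from 0.15 to 1.51 in wild-type cells. In knockout-labelled cells they ran from -1.88 to -0.09 and from -1.09 to 0.12. For the genotype difference in isotonic medium the medians were 0.90 and 0.68. There 5 genes of each group were at least 2-fold higher, against 0.888% of all genes. The 11 genes with no promoter in the table, whose motif status is not known, had hypertonic medians further from 0. These were 1.02 in wild-type and -0.88 in knockout-labelled cells. Lgals3bp had no match and was among the genes with the largest differences. Bst2 (chr8:71537547-71537642, minus strand), one of the genes within 2-fold, is shown for its overlapping matches.
Bst2: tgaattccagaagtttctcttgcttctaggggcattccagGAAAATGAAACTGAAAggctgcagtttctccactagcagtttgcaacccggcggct

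**Figure D4:**
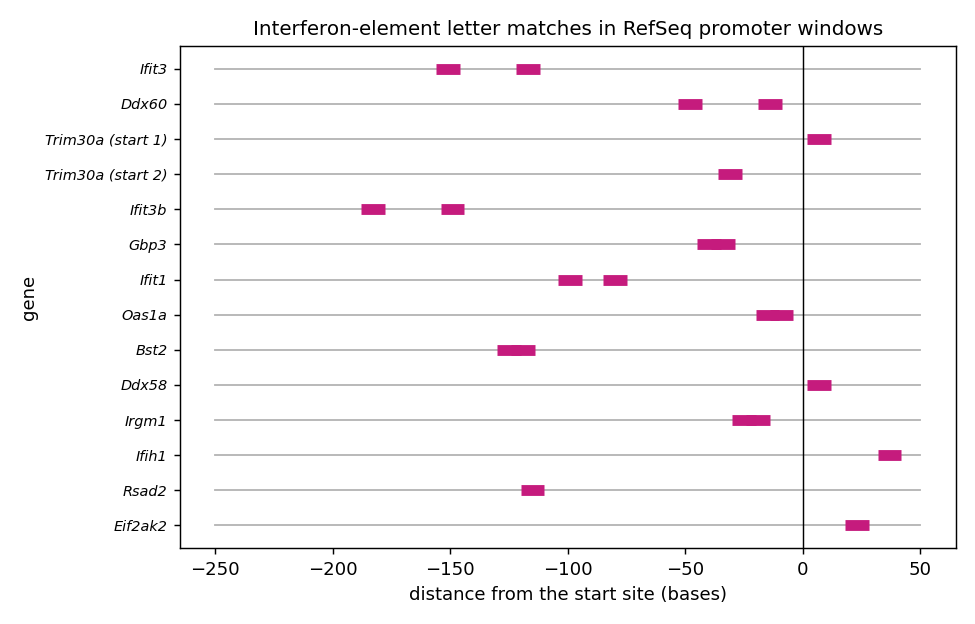
Position of matches to the interferon-element letters (bars) in the promoter windows of the 13 genes that hold one, in bases from the start site (vertical line at 0), 1 row per start site, ordered from the most negative difference of responses. Matches lie anywhere from 188 bases before the start, in Ifit3b, to beyond it, in Ifih1.

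Genes upstream of these effectors had medians near 0 for the hypertonic difference of each genotype. Of 36 listed genes of nucleic acid sensing and interferon signalling 34 were found, with a median wild-type hypertonic difference of -0.05 (1 at least 2-fold higher, none lower) and a median knockout-labelled one of -0.09 (2 lower, none higher). In isotonic medium 2 were at least 2-fold higher in knockout-labelled than in wild-type cells, and the median was 0.18. There 27 of the 34 were above 0, against 44.1% of all genes. The difference of responses had a median of -0.01. It was at least 2-fold negative for 3 and positive for 1, against 3.21% and 1.23% of all genes. Over all genes 0.577% were 2-fold higher and 0.236% lower in the wild-type hypertonic comparison. In the knockout-labelled one 1.67% were lower and 0.266% higher, and in the isotonic one 0.888% were higher. Irf7, the factor that amplifies interferon production and is itself induced by interferon, read 7.27, 8.81, 8.61 and 7.54, the order shared by most of the 36. Stat2, a subunit of the complex on the response element, read 7.90, 8.39, 9.02 and 8.70. Tlr3, an endosomal receptor for double-stranded RNA, read 4.98, 5.40, 5.49 and 4.45, dim on 3 arrays. Ifnb1, the interferon beta gene, named here after its values were seen, was dim on all arrays, at 2.91 or lower.

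A list of 40 other interferon-induced genes, of which 34 were found, had medians on the same sides of 0 that were nearer to it. Its median was 0.32 in the wild-type hypertonic comparison, with 30 above 0, against 45.5% of all genes. None was 2-fold higher or lower there, against 0.577% and 0.236%. In knockout-labelled cells the median was -0.19, with 4 at least 2-fold lower, against 1.67% of all genes. In isotonic medium 6 were at least 2-fold higher in knockout-labelled than in wild-type cells, against 0.888%, and the median was 0.47. The difference of responses was at least 2-fold negative for 12 of the 34, against 3.21% of all genes, with a median of -0.63. Gbp7, a guanylate-binding protein gene, read 6.96, 7.65, 8.13 and 6.57, and Tap1, a peptide transporter subunit gene, read 6.48, 6.89, 7.26 and 5.90. Sp100, a nuclear body protein gene, read 4.34, 4.44, 6.06 and 4.52, high on the knockout-labelled isotonic array alone, as Mx1 was. Parp12, an ADP-ribosyltransferase gene, read 8.35, 9.29, 9.52 and 9.44, with only the wild-type isotonic array low. Not all genes of this list went this way, and the difference of responses was above 0 for 6 of the 34. In isotonic medium 7 read lower in knockout-labelled than in wild-type cells, among them Ccl5 and Ifitm1. Ccl5, a chemokine gene, read 8.23, 9.02, 7.76 and 7.54. Ifitm1, which encodes a membrane protein that limits virus entry, read 6.02, 6.87, 5.63 and 6.24. Both were lower in knockout-labelled than in wild-type cells in each medium, as Ifi27l2a was. Slfn8, a schlafen family gene, was dim on all arrays. Lgals9, a galectin gene, read 8.20, 8.44, 9.55 and 8.87, highest in knockout-labelled cells.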

How the data were processed

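Signal was measured on 4 Affymetrix Mouse Gene 1.0 ST arrays, 1 per group, each of 4 pooled samples, per the labels' protocols and the series' design text. The authors deposited 1 value per probe set and array, read here as log2 from its range. The submitters' processing notes name MAS5; background correction and scaling were not given in the sources used here. Values were used as deposited. The platform annotation gave 1 gene for 21789 of 35557 probe sets, several for 1621 and none for 12147. The brightest probe set stood for a gene. Members and lists were chosen with earlier results of these data known. All 36 are named: by 4 signals if at least 2-fold apart between arrays or among the 3 nearest 0 in the difference of responses, otherwise by range. Of each pathway list at most 8 genes that are 2-fold apart are named. Differences were counted at 2-fold with no limit on dim genes, since a gene passing through its high array had to differ. The counting was tested on simulated data. Alternatives were quantile and cyclic loess normalization, centring, 2 dim limits, the mean of probe sets and 1.5-fold. Motifs were sought in RefSeq promoters (GRCm38.p6). Python 3.11.15, pandas 2.3.3, numpy 2.4.6, matplotlib 3.10.9, R 4.3.3 and limma 3.58.1 (normalization only) were used.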

Additional observations from a re-analysis of the deposited data

Results flagged for a closer look

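The antiviral effector genes differed between the genotypes in their hypertonic difference, which was above 0 in wild-type and below 0 in knockout-labelled cells for most of them. The difference of responses (knockout-labelled less wild-type) had a median of -1.34 over the 36 genes, beside 0.06 over all genes. It was -0.98 over 11 fibroblast markers, whose part was not tested. For 8 of the 36 genes, against 0.11% of all genes, those signs held with at least 2-fold in each genotype. The differences of responses of these 8 were -3.10 for Ifit3, -2.95 for Ddx60, -2.66 for Ifit3b, -2.59 for Lgals3bp, -2.52 for Iigp1, -2.51 for Gbp3, -2.47 for Dhx58 and -2.16 for Oasl2. With 1 array per group none of these differences was tested.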

How the results depend on the processing

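Each count and median was recomputed under 7 other settings. Quantile normalization, cyclic loess normalization, centring on the median and the mean of probe sets kept all 21 results within 1.5 times (counts) or within the SD between probe sets (medians); as each of the 36 genes has 1 probe set, the last changes only the comparison with all genes. The medians ranged from 0.77 to 0.82 for the wild-type response, -0.78 to -0.66 for the knockout-labelled response, 0.94 to 1.01 and -0.54 to -0.46 for the genotype differences in isotonic and hypertonic medium, and -1.39 to -1.27 for the difference of responses. A 1.5-fold limit gave 23 genes higher in wild-type hypertonic cells (2.71% of all genes), 21 lower in knockout-labelled hypertonic cells (6.78%), and 28 higher in knockout-labelled cells in isotonic (2.99%) and 3 in hypertonic medium (5.70%), where 15 were lower (8.76%). With it, 5 were higher (4.48% of all genes) and 4 lower (4.49%) in knockout-labelled isotonic than wild-type hypertonic cells, and 10 were higher (5.09%) and 3 lower (8.33%, the share of the 36 too) in knockout-labelled hypertonic than wild-type isotonic cells. Leaving out genes with a dim mean left 1 higher and 0 lower in the former pair and 0 lower in the latter, and leaving out genes dim on both arrays left 0 lower in the latter, since fewer genes were counted. No paired analysis was possible because each group has 1 array. Dim signals limit the sizes given for Dhx58, Mx1, Iigp1, Ddx60, Ifi27l2a and Zbp1.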
